A study of Mus musculus with 24 samples.

Results

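The genes described are the glucuronosyltransferases, glutathione S-transferases and sulfotransferases, the main conjugating enzymes of drug and hormone metabolism. They were taken by symbol: genes beginning with Ugt1, Ugt2 or Ugt3, the cytosolic glutathione transferases with a class letter and number together with Gstk1, Mgst1 to Mgst3, and Sult1 to Sult5. This gave 51 of the 16110 genes on the array, through 70 probes: 15 glucuronosyltransferases, 21 cytosolic or kappa glutathione transferases, 3 microsomal glutathione transferases and 12 sulfotransferases. The rule uses symbols only.

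Glucuronosyltransferases sit in the endoplasmic reticulum and move glucuronic acid from UDP-glucuronic acid onto hydroxyl and other groups of bilirubin, steroids, bile acids and drugs. Glutathione transferases join glutathione to electrophiles, and sulfotransferases move sulfate from the donor PAPS onto phenols, steroids and catecholamines. The liver is their best known site, and the nuclear receptors PXR and CAR, the Ah receptor and NRF2 are known inducers of many of them. Each product is more soluble in water and leaves the cell through transporters such as that made by Abcc2.

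The mice were 5-week-old female C57BL/6 animals, untreated or given an aqueous extract of Ephedra herba, an ephedrine-containing plant, by mouth at 50 mg/kg. Brain, heart and liver were each measured untreated and at 1, 6, 12 and 24 hours and 3, 5 and 10 days. Each combination of tissue and time was a single array, so a difference at 1 time in 1 tissue has no test. The labels do not state whether dosing was repeated, whether animals were pooled, whether the tissues came from the same animals or the clock time of sampling. Values are taken to be log2, a base the files do not state, and are centred near 0 on each array, so a value near 0 is the middle of the array and not a measured zero. No p-value reflects more than the spread of these samples, which the labels do not say came from separate animals. In whole tissue fewer cells of a type and less RNA per cell cannot be told apart.

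The labelled tissues carried their own markers. The mean of the 7 neuron markers spanned 4.29 to 4.60 on the brain arrays, that of the 7 cardiomyocyte markers 6.38 to 7.32 on the heart arrays, and that of the 11 hepatocyte markers 5.51 to 7.56 on the liver arrays. The cardiomyocyte mean was also 0.88 and 0.52 on the 1 and 24 hour liver arrays and 0.82 and 0.71 on the untreated and 10 day brain arrays, against -0.55 to 0.13 on the others. Some heart arrays also carried hepatocyte transcripts: 8 of the 11 markers lay above the median on the untreated, 1 hour and 6 hour heart arrays, against 4 on those of 3 and 5 days. Apoa2, an apolipoprotein of hepatocytes, was 5.71, 6.84, 4.12, 1.68, 1.12, 0.54, 0.46 and 3.75 on the heart arrays in order of time from untreated, while Alb, the serum albumin gene, stayed between -0.82 and -0.53 there. The liver arrays differed in range, with a highest value of 8.29 untreated, 8.11 at 1 hour, 10.78, 10.57 and 11.16 at 6, 12 and 24 hours, 8.26, 9.42 and 7.84 at 3, 5 and 10 days. Array medians lay between -0.016 and 0.0026, whereas the spread (median absolute deviation) of an array was 0.803 to 0.809 for brain, 0.596 to 0.600 for heart arrays and 0.356 to 0.367 for liver arrays, so distances between tissues are read beside values quantile-normalized over all 24 arrays.

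Across the arrays, 34 of the 51 genes lay above the median on all 8 liver arrays, 20 on all 8 heart arrays and 19 on all 8 brain arrays. Of all 16110 genes, 6814 did so in liver, 7521 in heart and 7796 in brain. The share of the 51 genes was thus above that of all genes in liver, but below it in heart and brain. At the other end 11 of the 51 genes lay above the median on 0 of the 24 arrays, among them 5 glucuronosyltransferases and 5 sulfotransferases. A gene entered the tests if it lay above the array median on at least 4 arrays, which 39 of the 51 did: 10 glucuronosyltransferases, 19 cytosolic or kappa and 3 microsomal glutathione transferases, and 7 sulfotransferases. The 12 untested genes include Ugt2a1, known from olfactory epithelium, and Sult1e1, the oestrogen sulfotransferase, whose liver values ran from -0.36 to -0.06.

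**Figure D1:**
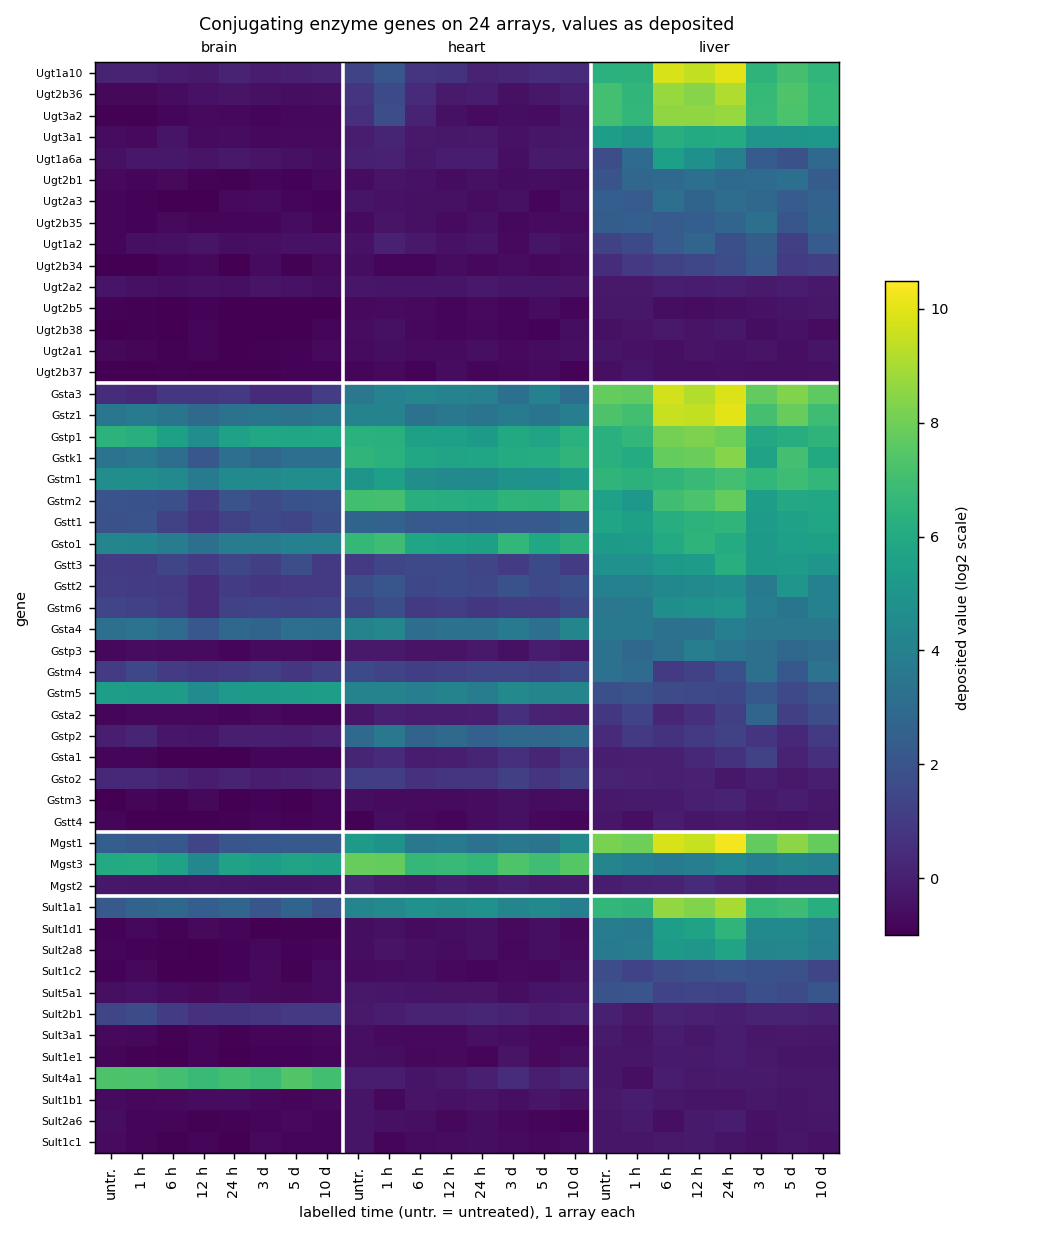
Deposited log2 values of all 51 genes (rows, ordered within each family by mean liver level) on the 24 arrays (columns, 8 times in brain, heart and liver, 1 array each). The bright glucuronosyltransferases are brightest in liver and Sult4a1 in brain, while several cytosolic glutathione transferases are bright in all 3 tissues.

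The first comparison asked how the genes were divided between the tissues, with the 8 times as blocks. Of the 39 genes tested, 38 differed between liver and brain, 34 higher in liver and 4 lower (limma, adjusted p under 0.05). The background was high, since 76.2% of all 10934 genes tested differed between these tissues. In the same fit 30.6% of all genes were higher in liver and 45.6% lower. Quantile-normalized, the all-gene split was 37.9% higher and 37.6% lower, and the split of the conjugating genes was the same 34 and 4. The median difference of the 39 genes was 3.34 on the log2 scale, against -0.16 for all genes, a median that moved to 0.01 when the arrays were quantile-normalized. Liver against heart gave 31 genes, 27 higher and 4 lower, where 65.3% of all genes differed, 24.7% higher and 40.6% lower. Quantile-normalized, it gave 28 higher and 7 lower, where 29.7% and 37.1% of all genes were. Heart against brain gave 23, of which 20 were higher in heart, where 71.4% of all genes differed, 34.3% higher and 37.0% lower. Of the 39 genes, 16 would have failed the filter without the liver arrays, as would 14.1% of all genes tested, so the count of genes higher in liver is no support for that direction. Among the other 23, liver was called above brain for 18 and below it for 4, where this held for 25.0% and 52.0% of all genes that passed without the liver arrays. Liver was called above heart for 12 of these 23 and below it for 4, where this held for 20.5% and 46.6% of the same background. In all, 27 genes were higher in liver than in both other tissues (16.8% of all genes), 3 higher in heart than in both (20.2%) and 3 higher in brain than in both (31.4%). Many of the 27 passed the filter only through the liver arrays, so that count is no support for the direction either.

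All 10 tested glucuronosyltransferases were higher in liver than in brain and in heart, but 9 of them, all except Ugt1a10, passed the filter only through the liver arrays. The 5 untested ones lay below the median on all 24 arrays. Ugt3a2, whose human counterpart uses UDP-glucose and UDP-xylose, ran from 6.62 to 8.71 in liver with a median of 7.17, and from -0.92 to -0.71 in brain. The difference between liver and brain was 8.36 (SE 0.36, adjusted p = 1.58e-13, limma), or 7.73 quantile-normalized. Ugt2b36, of the steroid- and drug-conjugating UGT2B group, ran from 6.57 to 9.14 in liver and from -0.76 to -0.37 in brain, a difference of 8.15 (SE 0.34). Ugt1a10 ran from 6.36 to 10.03 in liver and from -0.17 to 0.14 in brain, a difference of 7.76 (SE 0.50). Ugt3a2 and Ugt2b36 were among the 9 that passed only through the liver arrays, so their distance from brain is partly set by the filter. Of all genes tested, 76.2% differed between these tissues.

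The dimmer glucuronosyltransferases followed the same division at lower levels. Ugt3a1, whose human counterpart uses UDP-N-acetylglucosamine, was 4.98 to 6.20 in liver. Ugt1a6a, an enzyme for small planar phenols, was 1.74 to 5.47, the widest span among the dimmer ones. Ugt2b1, Ugt2a3, Ugt2b35 and Ugt1a2 had liver medians of 2.93, 2.65, 2.44 and 2.07, and Ugt2b34 of 1.22. In brain none of the 10 lay above the median on all 8 arrays.

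The cytosolic and kappa glutathione transferases were spread over all 3 tissues. Of the 19 tested, 17 were higher in liver than in brain and 11 higher in liver than in heart, with 13 higher in heart than in brain. Of all genes tested, 30.6%, 24.7% and 34.3% were higher in these comparisons. Among the 19, Gsta2 and Gstp3 passed the filter only through the liver arrays. Gsta3, an alpha-class enzyme known in mice for conjugating the aflatoxin epoxide, ran from 7.65 to 9.88 in liver, 3.16 to 4.34 in heart and 0.30 to 1.10 in brain. The difference was 4.68 (SE 0.23) between liver and heart and 7.84 (SE 0.23) between liver and brain. Gstz1, the maleylacetoacetate isomerase of tyrosine breakdown, was 6.94 to 10.05 in liver against 3.29 to 4.16 in heart and 3.00 to 3.69 in brain. The theta-class Gstt1 and Gstt3 were 5.37 to 6.52 and 4.80 to 6.25 in liver, and below 3 on each heart and brain array.

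Several glutathione transferases were brightest outside the liver. Gstm5, a mu-class enzyme known from brain and testis, spanned 4.57 to 5.44 in brain. It spanned 3.81 to 4.42 in heart and 1.47 to 2.17 in liver. It was 3.46 lower in liver than in brain (SE 0.10, adjusted p = 2.27e-16) and 2.35 lower in liver than in heart. Gstp2 was 2.54 to 3.62 in heart, 0.29 to 1.24 in liver and -0.35 to 0.20 in brain. Gstm2 was 6.13 to 7.11 in heart and 5.15 to 7.78 in liver, which overlapped, and 1.05 to 1.98 in brain, for a heart minus brain difference of 4.80 (SE 0.33). Gsto1, the omega-class reductase of dehydroascorbate and arsenicals, was 5.52 to 6.93 in heart, 5.21 to 6.47 in liver and 3.25 to 4.24 in brain. Gstm2 and Gsto1 were not called between liver and heart as deposited (adjusted p = 0.383 and 0.0764), but were called lower in liver when quantile-normalized (-0.67 and -0.70, adjusted p = 3.05e-05 and 2.32e-06).

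The 3 microsomal glutathione transferases divided the tissues differently from one another. Mgst1, an enzyme of the endoplasmic reticulum and outer mitochondrial membrane, was 7.74 to 10.31 in liver, 3.30 to 5.25 in heart and 1.39 to 2.45 in brain. Mgst3, known for glutathione peroxidase and leukotriene C4 synthase activity, was 6.63 to 7.81 in heart, 4.38 to 6.09 in brain and 3.73 to 4.34 in liver. It was 3.13 lower in liver than in heart (SE 0.17, adjusted p = 6.82e-12) and 1.51 lower in liver than in brain. Mgst2, which also makes leukotriene C4, was near the array median in every tissue, between -0.36 and 0.39.

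Among sulfotransferases, Sult4a1 was the brain gene. This enzyme, whose substrate is not settled, spanned 6.78 to 7.39 on the brain arrays. It spanned -0.37 to 0.45 on the heart arrays and -0.54 to -0.13 on the liver arrays, and was 7.33 lower in liver than in brain (SE 0.11, adjusted p = 1.39e-19). Sult2b1, which sulfates cholesterol and pregnenolone, was 0.63 to 1.63 in brain and between -0.22 and 0.24 in the other tissues. A further Sult2b1 probe was highest in liver, between -0.22 and 0.09. The 5 others called were higher in liver than in brain and heart. Sult1a1, the main phenol sulfotransferase, was 6.26 to 9.0 in liver, 3.95 to 4.82 in heart and 1.96 to 2.83 in brain. Sult1d1, known in mice for sulfating dopamine, and Sult2a8, a bile acid sulfotransferase of mouse liver, were 3.75 to 6.52 and 3.80 to 5.70 in liver and below -0.3 on each heart and brain array. Sult1c2 and Sult5a1 were dimmer, with liver medians of 1.77 and 1.75. These last 4 genes also passed the filter only through the liver arrays.

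Where a gene had several probes, 13 of 15 genes had all probes highest in the same tissue. The exceptions were Sult2b1 and Gstm1, whose second probe stayed between -0.27 and 0.42. Ugt1a2, Ugt2a3, Sult1b1 and Gstp1 each had a probe with a highest tissue mean of only -0.45, -0.26, -0.27 and -0.17. Low values are highest in liver by scale alone. The 5th percentile of the untreated array was -0.44 in liver, -0.70 in heart and -0.91 in brain. Agreement on liver therefore says little for these 4 genes. Many of these genes lie in clusters of close copies, the mu class on chromosome 3, Gsta1, Gsta2 and Gsta4 on chromosome 9 and the UGT2 genes on chromosome 5, and Ugt1a10, Ugt1a6a and Ugt1a2 end at the same base of chromosome 1 (88220002, GRCm38.p6). Probe sequences were not used here, so a probe may also read a close copy or, in the Ugt1a locus, a shared exon.

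**Figure D2:**
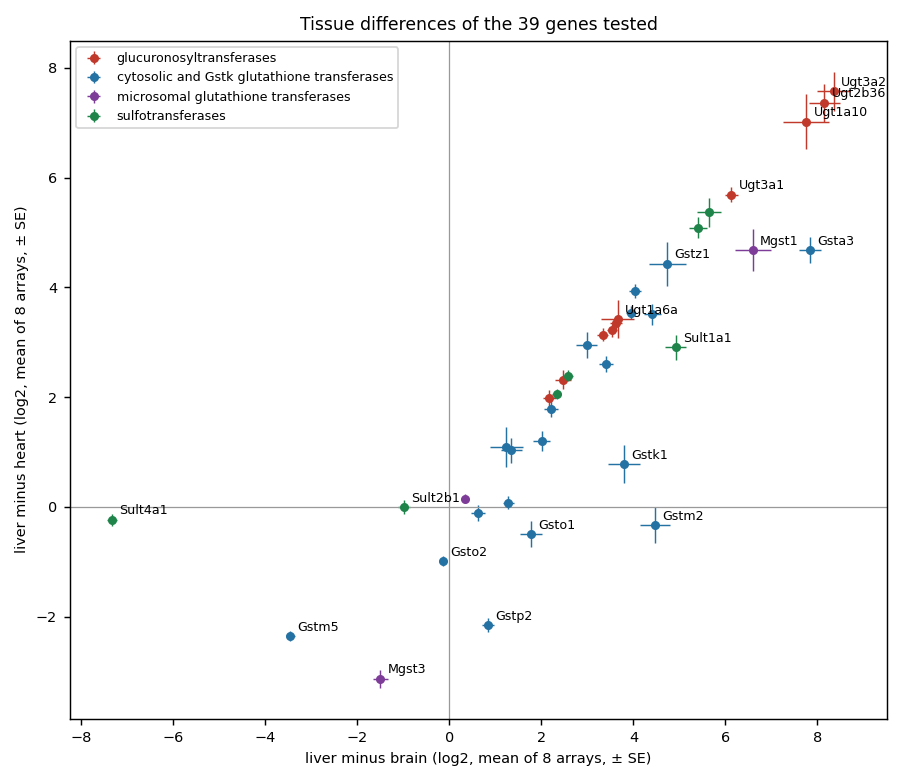
Difference between liver and brain (horizontal) against liver and heart (vertical) for the 39 genes tested, on the log2 scale of the deposited values, with bars of 1 SE from the fit over 24 arrays. All 10 glucuronosyltransferases lie at the upper right, while Sult4a1, Gstm5 and Mgst3 lie below 0 on the horizontal axis.

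The second comparison set the 7 treated arrays of a tissue against its untreated array. None of the 39 genes was called in brain, heart or liver (limma), where 0.0%, 0.11% and 0.0% of all genes were. At an unadjusted p under 0.05 0 of the 39 genes stood out in brain, 0 in heart and 4 in liver, among 427, 612 and 224 genes in all. The lone untreated array is assumed to vary like the treated ones. The fit uses 1 spread shared by the 3 tissues, so its p-values do not measure the spread of liver alone. The 4 liver genes were Ugt2b1, Ugt2b34, Ugt1a6a and Ugt1a2. Over the 8 arrays of a tissue, the SD of Ugt2b1 was 0.09 in brain, 0.09 in heart and 0.43 in liver. Ugt2b1 was 1.97 untreated and 2.81, 2.94, 3.18, 2.92, 3.04, 3.22 and 2.34 at the 7 times, so every treated array was above the untreated one. The mean difference in the fit across all genes was 0.95 (SE 0.21), with an adjusted p = 0.898 (limma). It passed the threshold only when the 10 day arrays were left out. The difference between tissues of the treated minus untreated contrast was called for none of the 39 genes, against 0.0274% of all genes.

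Direction was then counted without a test. In liver 6 of the 39 genes were above untreated at all 7 times both as deposited and quantile-normalized, where 4.91% of all genes were, and 1 was below, where 8.3% were. The 5 with the largest mean differences were Ugt1a6a (1.75), Ugt1a10 (1.62), Ugt2b1 (0.95), Ugt2b34 (0.91) and Sult2a8 (0.83). All of these except Ugt1a10 passed the filter only through the liver arrays, as did 41.0% of the 39 genes and 14.1% of all genes tested. The liver count is thus no support for a change particular to these genes or to the glucuronosyltransferases. Ugt2b34 was 0.50 untreated and 0.91, 1.27, 1.43, 1.78, 2.23, 1.06 and 1.18 afterwards, highest at 3 days. In heart 3 genes were above untreated throughout (10.6% of all genes) and 6 below (15.3%). In brain 3 were above (8.59%) and 5 below (15.0%). The 3 above in brain, Ugt1a2, Ugt2b36 and Gsta2, lay above the array median on 0 of the 8 brain arrays. Of the 6 below in heart, Ugt2a3, Sult5a1 and Ugt2b34 lay above it on 0 of the 8 heart arrays, and Mgst2 on 1. For these genes the direction is of values near the floor. The 7 differences of a tissue share its 1 untreated array, and a single low or high array there would turn all of them.

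As deposited, the liver arrays of 6, 12 and 24 hours differed most from the untreated array. At these times 16, 18 and 17 of the 39 genes differed at least 2-fold, 15, 17 and 16 of them higher, where 13.3%, 9.66% and 13.1% of all genes differed and 12.2%, 8.68% and 11.8% were higher. Quantile-normalized, the counts were 4, 4 and 6, with 2, 3 and 5 of them higher, where 5.19%, 4.35% and 4.82% of all genes differed and 2.22%, 1.87% and 1.71% were higher. At 1 hour and at 3, 5 and 10 days the counts as deposited were 1, 5, 2 and 2, where 0.649%, 1.39%, 2.83% and 0.329% of all genes did. Quantile-normalized they were 1, 6, 2 and 2, where 0.823%, 1.69%, 2.73% and 0.421% of all genes did, so the 3 day array then had as many as that of 24 hours. The 6 genes at 3 days were Gsta1, Gsta2, Ugt1a2, Ugt2b1, Ugt2b34 and Ugt2b35, each higher than untreated. A 2-fold difference was counted only where the brighter array lay above its median. Of the 39 genes, 41.0% passed the filter only through the liver arrays, against 14.1% of all genes. A higher share of the 39 genes in these liver counts is thus partly set by the filter, and is no support for a change particular to them.

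Many of the genes whose differences depended on the scaling were bright, but dim genes did so too. Ugt1a2 at 6 hours and Ugt2b1 at 12 hours were 2-fold higher only as deposited. Gsta1 at 24 hours was so only when quantile-normalized over the 24 arrays. In liver Mgst1 was 8.17 untreated, then 9.80, 9.56 and 10.31 at 6, 12 and 24 hours, and 7.96, 7.74, 8.49 and 7.76 at 1 hour and 3, 5 and 10 days. On the untreated array it stood 0.12 below the highest value of that array. Mgst1 and Gsta3 were within 0.5 of the highest value on the untreated, 1 hour and 10 day liver arrays, and no conjugating gene was on the other liver arrays. Among hepatocyte markers Hpx, Trf, Ambp, Apoa1 and Apoa2 lay between 8.20 and 8.29 on the untreated array and between 11.07 and 11.16 at 24 hours. Quantile-normalized, Mgst1 was below untreated at all 7 liver times, with differences of -0.56, -0.45 and -0.26 at 6, 12 and 24 hours. Gsta3 differed by -0.15, -0.37 and -0.24, Ugt2b36 by -0.03, -0.17 and 0.13 and Gstz1 by 0.24, 0.34 and 0.40. The part of the array range in the deposited differences of these genes was not tested.

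**Figure D3:**
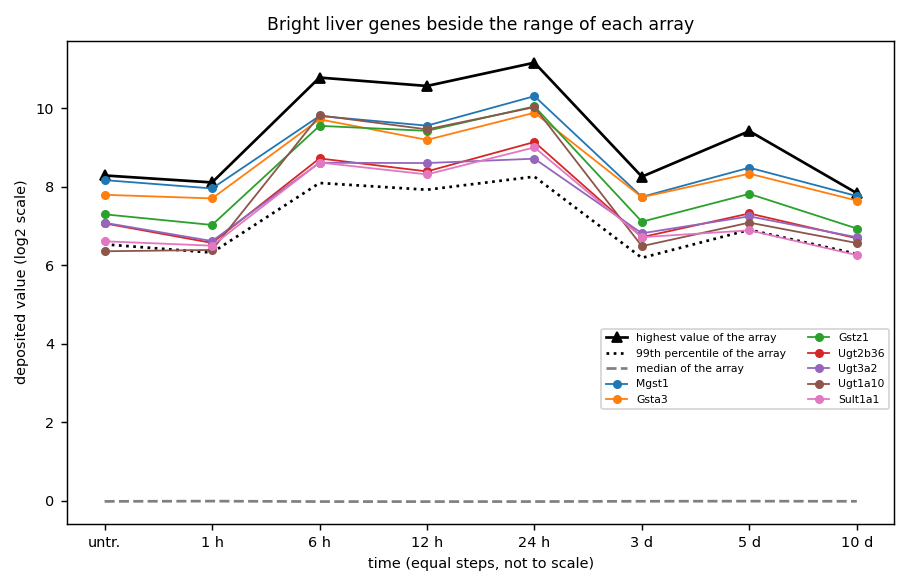
Deposited log2 values of 7 bright genes on the 8 liver arrays, beside the highest value, the 99th percentile and the median of each array. The bright genes and the top of the array are higher together at 6, 12 and 24 hours, while the median stays near 0.

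A smaller group kept its direction in both scalings, with differences of other sizes. Ugt1a6a was 1.74 untreated and 3.02, 5.47, 4.77, 4.04, 2.35, 1.87 and 2.91 at the 7 times, highest at 6 hours. Its other probes were 0.89 and 2.41 untreated and 3.50 and 3.28 at 6 hours, the second of them highest at 24 hours (3.58). Quantile-normalized, Ugt1a6a was 1.45, 2.73, 2.34, 1.71, 0.78, 0.27 and 1.33 above untreated. Ugt1a10 was 6.36 untreated and 6.39, 9.82, 9.46, 10.03, 6.49, 7.09 and 6.57, so its 6, 12 and 24 hour arrays stood apart from the other 5. Quantile-normalized it was 1.46, 1.46 and 1.41 above untreated at 6, 12 and 24 hours, less than the deposited differences of 3.46, 3.10 and 3.67, and 0.24 to 0.49 above at the other times.

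Gstm4, a mu-class glutathione transferase, had the opposite course. It was 3.32 untreated and 3.04, 0.94, 1.27, 1.82, 3.23, 2.18 and 3.40 afterwards, lowest at 6 hours, near the untreated value at 3 and 10 days and lower again at 5 days. Quantile-normalized the differences were -2.38, -2.04 and -1.57 at 6, 12 and 24 hours. Of its neighbours in the cluster on chromosome 3, Gstm6 was 3.56 untreated and 4.72 at 6 hours, and higher in both scalings. Gstm1 was 6.50 and 6.52 as deposited, but differed by -1.11 at 6 hours when quantile-normalized. In heart and brain Gstm4 stayed within 1.13 to 1.60 and 0.80 to 1.48.

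Gsta2, an alpha-class enzyme and textbook target of NRF2 and the Ah receptor, had another course. It was 0.88 untreated and 1.30, 0.24, 0.59, 1.16, 2.73, 1.17 and 1.71 afterwards, lowest at 6 hours and highest at 3 days. Its close copy Gsta1, named here after its values were seen, was -0.05 untreated, 0.01 to 0.71 from 1 to 24 hours, 1.22 at 3 days and 0.11 and 0.54 at 5 and 10 days, so both copies were highest on the 3 day array. Quantile-normalized the 3 day differences were 2.05 for Gsta2 and 1.63 for Gsta1. Gsta3 and Gsta4 of the same class differed by 0.29 and 0.19 there.

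**Figure D4:**
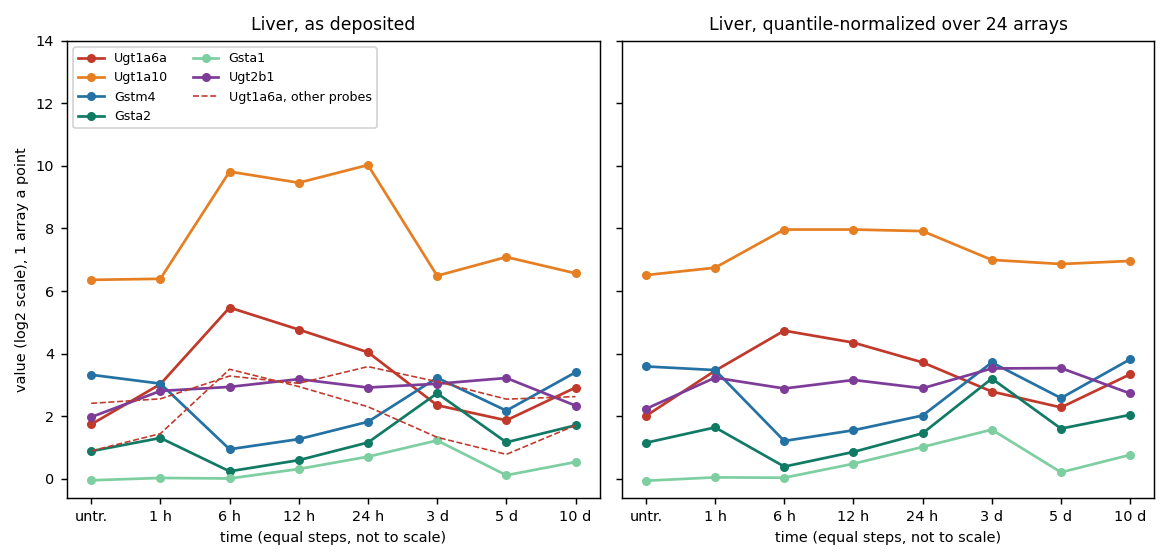
Values of 6 genes on the 8 liver arrays, as deposited (left, with the other Ugt1a6a probes dashed) and quantile-normalized over 24 arrays (right), 1 array a point on a log2 scale. Ugt1a6a and Ugt1a10 are highest at 6 to 24 hours, Gstm4 is lowest there, and Gsta1 and Gsta2 are highest at 3 days in both panels.

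The start regions of these pairs are shown because the members of each pair were high on the same liver arrays. Each run is 300 bases around the RefSeq gene start in GRCm38.p6, on the strand of the gene, and 47 of the 51 genes had such a sequence. Capitals mark GCGTG, the core of the Ah receptor element, in Gsta1 (chr9:78230419-78230718, plus strand) and Gsta2 (chr9:78347096-78347395, minus strand). They mark GTTAAT or its reverse complement ATTAAC, a half-site of the liver factor HNF1, in Ugt1a6a (chr1:88134559-88134858, plus strand) and Ugt1a10 (chr1:88055161-88055460, plus strand).
Gsta1: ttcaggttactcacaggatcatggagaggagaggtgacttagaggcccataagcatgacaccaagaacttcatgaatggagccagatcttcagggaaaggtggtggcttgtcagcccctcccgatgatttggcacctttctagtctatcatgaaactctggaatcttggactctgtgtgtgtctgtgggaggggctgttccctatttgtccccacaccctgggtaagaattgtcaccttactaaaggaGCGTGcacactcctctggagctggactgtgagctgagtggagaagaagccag
Gsta2: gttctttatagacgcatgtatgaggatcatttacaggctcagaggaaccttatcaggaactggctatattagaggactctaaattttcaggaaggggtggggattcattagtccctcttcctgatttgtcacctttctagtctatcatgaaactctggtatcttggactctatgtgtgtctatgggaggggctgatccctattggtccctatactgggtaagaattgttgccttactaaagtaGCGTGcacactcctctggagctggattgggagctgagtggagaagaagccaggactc
Ugt1a6a: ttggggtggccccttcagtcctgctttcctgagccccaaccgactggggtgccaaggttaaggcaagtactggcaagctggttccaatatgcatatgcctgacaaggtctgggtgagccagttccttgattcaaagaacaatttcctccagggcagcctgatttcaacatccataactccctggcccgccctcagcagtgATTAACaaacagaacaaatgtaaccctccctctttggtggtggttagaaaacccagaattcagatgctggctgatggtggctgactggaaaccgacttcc
Ugt1a10: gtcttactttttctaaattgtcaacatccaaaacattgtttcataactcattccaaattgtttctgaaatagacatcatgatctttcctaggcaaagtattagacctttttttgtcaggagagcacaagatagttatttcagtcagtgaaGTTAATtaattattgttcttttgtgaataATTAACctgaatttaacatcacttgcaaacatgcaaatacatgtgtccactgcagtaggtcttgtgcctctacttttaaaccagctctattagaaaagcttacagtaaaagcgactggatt

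The Gsta1 and Gsta2 windows were identical at 74.6% of aligned positions, and those of Ugt1a6a and Ugt1a10, which are separate first exons of 1 locus, at 45.2%. On either strand GCGTG was found in 10 of the 47 windows and in 35.2% of all 27025 genes, and in 0 of 14 glucuronosyltransferase windows. GTTAAT was found in 8 of 47 windows, 4 of them glucuronosyltransferases, and in 8.24% of all genes. The NRF2 element core TGACNNNGC was in 3 of 47, namely Gsta3, Gstm5 and Mgst1, and in 14% of all genes, and TTATGTAA, the D-box of the clock output factors, in Ugt2b1 alone and in 1.11% of all genes. Each match is of letters in this window only, and no match of another of these motifs overlaps those in the 4 runs shown.

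The third comparison contrasted, within each tissue, the 6 and 12 hour arrays with those of whole days (24 hours, 3, 5 and 10 days). If tissue was taken at fixed delays, the whole-day arrays share a time of day, but clock times are not in the labels. In liver 2 of the 39 genes were called, where 1.58% of all genes were (1.41% higher and 0.174% lower): Ugt1a6a rose and Gstm4 fell. Ugt1a6a was 5.12 at 6 and 12 hours against 2.79 on the whole days, a difference of 2.33 (SE 0.39, adjusted p = 0.0104, limma), and 1.51 quantile-normalized (adjusted p = 0.0129). Gstm4 was 1.10 against 2.66, a difference of -1.55 (SE 0.32, adjusted p = 0.0255), and -1.65 quantile-normalized (adjusted p = 0.0219). Gsta2 differed by -1.27 (SE 0.32, adjusted p = 0.0550) and was called when quantile-normalized (-1.45, adjusted p = 0.0255), which gave 1 higher and 2 lower calls in place of 1 and 1, where 2.25% of all genes were called. That scaling moved the median of all genes in this contrast from 0.09 to -0.02. The fit uses 1 spread shared by the 3 tissues. Over the 8 arrays of a tissue, the SD of Ugt1a6a was 0.13 in brain, 0.17 in heart and 1.36 in liver. For Gstm4 it was 0.22, 0.16 and 0.98, and for Gsta2 0.04, 0.25 and 0.76. These SDs include the time differences themselves. The SE and p-values of these genes thus do not measure the spread of liver alone.

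These calls rest on few arrays. Leaving out the 24 hour arrays gave 22 calls, 19 higher and 3 lower, where 23.7% of all genes were then called higher and 5.94% lower, with Gsta3, Gstz1, Mgst1, Sult1a1 and Ugt1a10 among those higher. Leaving out any of the other 5 times gave 0, with adjusted p-values from 0.0532 for Ugt1a6a and 0.0734 for Gstm4 upward. The liver array of 24 hours had the highest maximum and lay in the whole-day group. In brain and heart 0 of the 39 genes were called (limma), as were 0.0% of all genes, with 2 and 1 of the 39 at an unadjusted p under 0.05. The difference of this contrast between tissues was called for 0 of the 39 (limma, 7 at an unadjusted p under 0.05) and for 0.0% of all genes, and without the 24 hour arrays for 17 of the 39 and 16.2% of all genes. For Ugt1a6a the unadjusted p of that difference was 0.00105 (adjusted p = 0.222).

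The fourth comparison set each time against untreated with the 3 tissues as blocks (n = 3 arrays a time). At 12 hours 1 gene was called, where 5.37% of all genes were and 4.05% were lower: Mgst3 fell by 0.99 (SE 0.27, adjusted p = 0.0411, limma). It went from 6.03 untreated to 4.38 at 12 hours in brain, from 7.81 to 6.76 in heart and from 4.21 to 3.93 in liver, lower in 3 of 3 tissues. The call was lost without brain (adjusted p = 0.532), without heart (0.339) and with no detection filter. At 12 hours without liver there were 10 calls, each lower, where 19.2% of all genes were called lower. At 6 and 24 hours 0 of the 39 were called as deposited (limma, 7 and 4 at an unadjusted p under 0.05), where 3.33% and 2.7% of all genes were. Quantile-normalized, Gsta4, which conjugates 4-hydroxynonenal, and Mgst1 were also lower at 12 hours (-0.70 and -0.81, adjusted p = 0.0325 and 0.0465), where 7.44% of all genes were called.

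Sult1a1 was called higher when quantile-normalized, by 0.74 at 6 hours (adjusted p = 0.0327) and 0.79 at 24 hours (adjusted p = 0.0300), where 3.8% and 2.75% of all genes were called. As deposited it was 2.21 untreated, 2.83 at 6 hours and 2.75 at 24 hours on the brain arrays, 4.25, 4.81 and 4.82 on the heart arrays, and 6.61, 8.62 and 9.0 on the liver arrays, higher in 3 of 3 tissues at both times. The deposited differences were larger in liver than elsewhere, and the adjusted p at 24 hours was 0.108 (limma). Without liver it was called higher at both times as deposited too, where 3.63% and 4.03% of all genes were called higher. At 1 hour, 3, 5 and 10 days 0 of the 39 were called (limma, 1, 3, 2 and 0 at an unadjusted p under 0.05), where 0.0%, 0.32%, 1.98% and 0.0% of all genes were. Over all 7 times together (limma's F test) 0 of the 39 were called as deposited, with 7 at an unadjusted p under 0.05, where 4.31% of all genes were, and Sult1a1 and Gsta4 were called when quantile-normalized, where 7.63% were.

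Several genes that were highest in liver had heart values that ran beside the hepatocyte markers. Ugt1a10 was 1.37, 2.06, 0.77, 0.68, 0.09, 0.25, 0.44 and 0.39 on the heart arrays from untreated to 10 days, and Ugt3a2 was 0.59, 1.73, 0.12, -0.47, -0.65, -0.59, -0.61 and -0.30. Ugt2b36 was 0.79, 1.60 and 0.37 on the first 3 arrays and below 0 on the other 5. The mean of the hepatocyte markers in heart was 2.16, 2.81, 1.60, 0.45, 0.19, 0.13, 0.03 and 1.10 on the same arrays. All 4 series were highest at 1 hour. The part of hepatocyte RNA in these heart values was not tested. The heart minus brain call of Ugt2b36 (0.79, SE 0.34, adjusted p = 0.0491) was lost in 7 alternatives, among them those without the untreated or the 1 hour arrays.

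Mgst1 was lower than untreated at all 7 heart times. It was 5.25 untreated and 4.91, 3.60, 3.75, 3.30, 3.62, 3.44 and 4.48 afterwards, with a mean difference of -1.37 (SE 0.72, adjusted p = 0.868, limma). Beside it, the untreated heart array carried more of the white fat markers than the others: Adipoq, the adiponectin gene, was 4.28 untreated and 0.22 to 1.85 afterwards, and all 5 fat markers lay above the median on that array against 1 to 3 on the others. The part of either marker list in the Mgst1 values was not tested. Mgst3 was 7.81 untreated and 6.65, 6.76 and 6.63 at 6, 12 and 24 hours, single arrays with no test. Gsta3 was 3.56 untreated and 4.08, 4.34, 4.17, 4.03, 3.19, 4.04 and 3.16 at the 7 times, with values on both sides of the untreated one.

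**Figure D5:**
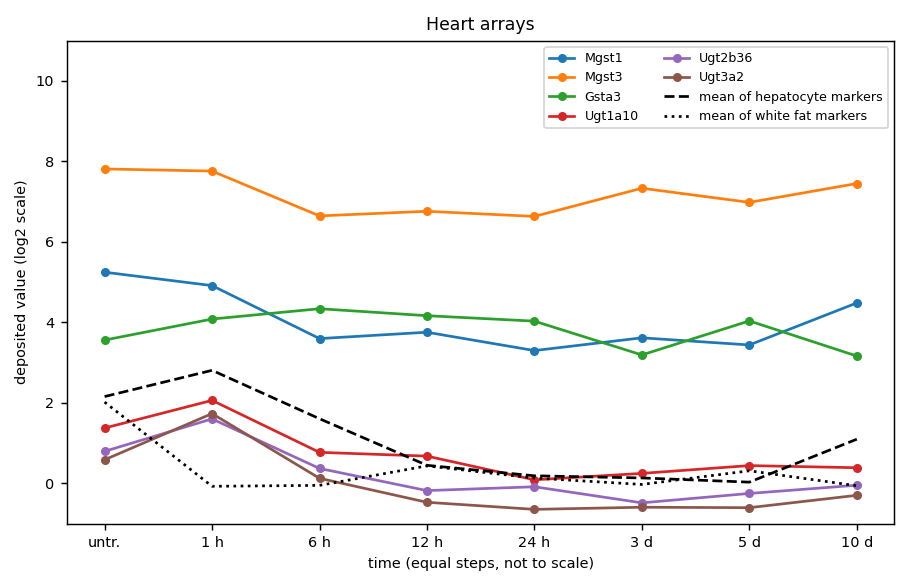
Deposited log2 values of 6 genes on the 8 heart arrays, beside the mean level of the hepatocyte (dashed) and white fat (dotted) markers. Ugt1a10, Ugt2b36 and Ugt3a2 are highest at 1 hour together with the hepatocyte markers, and Mgst1 is highest untreated.

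In brain the 12 hour array was the lowest for several glutathione transferases, but the share of the 39 genes that were 2-fold lower on it was close to that of all genes when quantile-normalized. As deposited 6 of the 39 genes were at least 2-fold lower than untreated on it, where 9.61% of all genes were as much lower and 12.5% differed as much in either direction. Quantile-normalized 3 were (7.69%), where 6.16% were lower and 11.5% differed. Gstp1, the pi-class enzyme, was 6.43 untreated, 4.62 at 12 hours and 5.53 to 6.20 at the other times. Mgst3 was 6.03, 4.38 and 5.39 to 6.09, and Gstk1, the mitochondrial and peroxisomal kappa enzyme, was 3.40, 2.13 and 2.91 to 3.62. At 1, 6 and 24 hours and 3, 5 and 10 days 0 of the 39 differed 2-fold from untreated in brain, where 0.0915%, 2.29%, 3.86%, 0.887%, 4.04% and 0.165% of all genes did. Sult4a1 was 6.78 at 12 hours and 6.83 to 7.39 on the other brain arrays. The neuron marker mean was 4.35 on that array and 4.29 to 4.60 on the others. The mean of the 6 meninges markers was 2.71 there and 2.95 to 3.41 on the others, and that of the 6 Kupffer cell and macrophage markers -0.30 against -0.16 to 0.05, both lowest on the 12 hour array. Of these 6 macrophage markers only 1 lay above the median on that array, and 1 or 2 on the others, so their mean is mostly of values near the floor. The fibroblast mean (0.94) was also lowest there, while the endothelial (0.46), astrocyte (4.245) and oligodendrocyte (5.69) means were not. The part of these markers in the glutathione transferase values was not tested.

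The genes that supply and remove conjugates were taken from 7 lists, tested in the same fits. Of the 7 conjugate exporters on the array 4 passed the filter. The mean of the 7 was -0.42 to -0.33 on the brain arrays and 2.39 to 3.17 on the liver arrays. List genes that passed the filter only through the liver arrays were not counted. The counts higher in liver are therefore no support for that direction. Against brain, liver was higher for 4 of 4 conjugate exporters (Abcc2, Abcc6, Abcb11 and Abcb4, list median 5.12) and for 8 of 9 other conjugating enzymes (median 3.78), with Nat8 lower. It was higher for 9 of 11 xenobiotic sensors and liver factors (median 2.29), 3 of 4 genes of UDP-glucuronic acid supply (1.62), 5 of 7 of PAPS supply (1.15), 7 of 11 of glutathione supply and recycling (0.43) and 6 of 11 NRF2 targets outside these families (0.42), beside a median of -0.16 for all genes, of which 30.6% were higher and 45.6% lower. Lower in liver were Slc7a11, the cystine carrier, on the glutathione and NRF2 lists (-2.39), Chac1 (-0.88) and Gpx4 (-0.46) of the glutathione list, Cbr3 (-2.55) and Srxn1 (-0.97) of the NRF2 list, Papss1 (-2.91) and Arsa (-1.09) of the PAPS list, and Keap1 (-0.47) of the sensors. PAPS synthase was divided between its copies: Papss2 was higher and Papss1 lower in liver than in brain and in heart. Within liver, treated against untreated and 6 and 12 hours against whole days called 0 genes of each of the 7 lists. Nr1i2 and Nr1i3, the genes of PXR and CAR, ran from 2.64 to 3.56 and 3.44 to 4.63 on the liver arrays, Nqo1, an NRF2 target, from 0.49 to 1.55, and Ahr lay below 0 on all 8. Across tissues the calls were Gpx4, Arsa and Srxn1 lower at 12 hours, and Srxn1 also at 6 hours and 5 days.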

How the data were processed

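RNA of mouse brain, heart and liver was measured on 24 Illumina arrays, amplified to biotinylated cRNA per the labels' protocols. The values are used as deposited by the authors and taken as log2; the sources used here give neither their normalization nor the log base, and the values show arrays centred near 0 with nearly equal median absolute deviation within a tissue. A second deposited table of 24 columns was not used, since its columns match no sample label. Of 25697 probes 23141 had 1 gene symbol, 2556 none and 0 several, from the platform annotation, which can be old. The probe with the highest mean stood for each of 16110 genes, and 10934 genes above the array median on at least 4 arrays were tested.

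Models were fitted with limma 3.58.1 in R 4.3.3 (lmFit, eBayes) over all genes tested, with Benjamini-Hochberg adjusted p under 0.05 as the call. Tissue contrasts had time as a block, time contrasts tissue as a block, and the contrasts within a tissue shared 1 estimate of spread. Only the tissue fit was tried on simulated data, for liver against brain, and the other fits were not. Alternatives were quantile normalization over 24 arrays or within each tissue, no filter, the mean of a gene's probes, no block, and leaving out each time or tissue. No pair of arrays correlated above 0.9964 (Pearson). Python 3.11.15 and Biopython 1.88 were used for tables and alignments, and the number of arrays limits the precision.

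The genes and lists (7 pathway lists and markers of neurons, cardiomyocytes, hepatocytes, white fat, meninges, macrophages, fibroblasts, endothelial cells, astrocytes and oligodendrocytes) were chosen with earlier results of these data known. Named were genes above the median on all 8 arrays of a tissue, up to 6 called genes of a family each way, up to 5 each way with 1 direction at all 7 times, and up to 4 of a list.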

Additional observations from a re-analysis of the deposited data

Results flagged for a closer look

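Of 73 groups of 8 arrays examined, 9 had 1 array far from the other 7, where chance gives about 1 in 20. In brain 8 of these were low values of glutathione transferases on the 12 hour array, out of 19 of these genes examined in brain. Among all 7796 genes examined there by the same rule, 7.93% stood apart as low on that array, and genes of 1 array are not independent. Gstm1 was 3.701 there against 4.438 to 4.726 on the other 7 arrays, Gstm2 was 1.045 against 1.693 to 1.979, and Gstm5 was 4.57 against 5.155 to 5.438. Gstm6 was 0.4545 against 1.048 to 1.41, Gsto1 was 3.252 against 3.814 to 4.238, and Gstt2 was 0.4423 against 0.8278 to 1.075. Both microsomal genes concerned were low on the same array, Mgst1 at 1.391 against 2.089 to 2.447 and Mgst3 at 4.379 against 5.39 to 6.091. The ninth was Gstt3 in liver, highest at 24 hours with 6.246 against 4.798 to 5.363. These arrays are single, and the cause was not tested.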

How the results depend on the processing

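The tissue counts of 38, 31 and 23 genes stayed between 38 and 38, 31 and 33, and 22 and 24 when 1 time was left out, and were 38, 33 and 25 with no replicate block (time left out of the fit), the only pairing the design has. With no detection filter they were 50, 43 and 34, from more genes tested. Over 95 called gene results and 1223 alternative values, 1199 kept direction and call, 24 lost the call and 0 reversed. Apart from Mgst3 at 12 hours and Ugt1a6a and Gstm4 in liver, these results were all tissue calls. With a tissue left out, Mgst3 kept its call in 1 of 3 fits. With a time left out, Ugt1a6a and Gstm4 each kept theirs in 1 of 6. Treated against untreated liver ranged from 0 to 1 when a time was left out (Ugt2b1 without 10 days). Leaving out a tissue gave 0 to 2 genes at 6 hours, 0 to 10 at 12 hours, 0 to 2 at 24 hours, 0 to 1 at 5 days and 0 to 5 over all times, with the highest count of each without liver. Both quantile normalizations gave 1 gene at 6 hours, 3 at 12 hours, 1 at 24 hours and 2 over all times, and no filter gave 0 at 12 hours. Leaving out a time gave 0 to 22 for 6 and 12 hours against whole days in liver and 0 to 17 for its difference between tissues, the highest without 24 hours. The 2-fold counts were 3 and 3 in brain at 12 hours under quantile normalization over 24 arrays and within tissue, and in liver 4 and 5 at 6 hours, 4 and 5 at 12 hours and 6 and 5 at 24 hours. The 1 hour liver count was 2 within tissue and 0 with the probe mean, and the 10 day count 0 with the probe mean. The cause was not tested. Both groups held 1 array per tissue at each time, which limits every comparison of single times.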
